A study of Mus musculus with 66 samples.

Results

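The genes described here are 29 genes of cholesterol synthesis and of its control by the sterol regulatory element-binding proteins (SREBPs), chosen by symbol from a count table of 30084 gene symbols. They were measured in cultured mouse neurons depleted of chromatin and transcription regulators. All 29 passed the filter on low counts, among 16145 genes tested. Each is placed by its role. The mevalonate arm holds 7 genes (Acat2, Hmgcs1, Mvk, Pmvk, Mvd, Idi1 and Fdps). The squalene and sterol arm holds 11 genes (Fdft1, Sqle, Lss, Cyp51, Tm7sf2, Msmo1, Nsdhl, Hsd17b7, Ebp, Sc5d and Dhcr7). The SREBP regulators are 5 (Insig1, Insig2, Srebf1, Srebf2 and Scap), the transport genes 4 (Stard4, Npc1, Npc2 and Abca1) and the fatty acid synthesis genes 2 (Fasn and Scd2).

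The neurons came from wildtype e16.5 embryos (late gestation), and cultures from male and from female embryos were kept apart. Wells were infected with lentivirus encoding a short hairpin RNA (shRNA) that lowers its target, at doses meant to bring the target to about 50% of its level. The targets were the DNA methyltransferase gene Dnmt3a, the histone-modifying enzyme genes Ash1l, Kdm6b and Kmt2c, the chromatin remodeller gene Chd8, Setd5 and Mbd5, the Mediator subunit gene Med13l and the transcription factor gene Tbr1. The controls were a nontargeting shRNA and wells without virus. Medium with virus was replaced on culture day 6 and lysis followed on day 10, and each of the 22 groups had 3 libraries of polyadenylated RNA, 66 in all. All groups share the wildtype genotype and the culture, and every shRNA group, the nontargeting one included, also shares the viral infection. The hairpin sequences and the number of hairpins per target are not given in the sources used here. The labels do not say that the replicates came from separate cultures or litters beyond wells infected in triplicate, so p-values measure only the spread among these libraries. RNA was taken from whole wells, in which fewer cells of a type and less RNA per cell cannot be told apart.

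Cells build cholesterol from acetyl-CoA through mevalonate, squalene and lanosterol in a chain of enzymes that sit mostly in the endoplasmic reticulum. The transcription factor SREBP2 (gene Srebf2) switches on nearly all of these enzymes, whereas SREBP1 (gene Srebf1) acts mainly on fatty acid synthesis. When membrane sterol is low, the escort protein SCAP carries the SREBP precursor to the Golgi, where proteases release the active factor. When sterol is high, INSIG proteins hold SCAP back. Cholesterol does not cross from blood into the brain in useful amounts, so neural cells make their own, and young neurons rely on it to extend axons and form synapses.

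SREBPs bind sterol regulatory elements and act together with NF-Y, which binds the letters CCAAT. The promoter windows of 5 genes are shown because they belong to the genes that moved furthest after Chd8 shRNA (Tm7sf2, Lss, Mvk and Npc2) and to an entry enzyme of the pathway that did not pass the test there (Hmgcs1). They are the 250 bases before the RefSeq transcript start in build GRCm38.p6, written 5′ to 3′ on the strand of the gene. Capitals mark CCAAT and a match to the sterol element searched as TCACNCCAC, each on either strand (CCAAT reads ATTGG on the other). The windows lie at chr19:6067851-6068100, minus strand (Tm7sf2), chr10:76531355-76531604, plus strand (Lss), chr5:114444019-114444268, plus strand (Mvk), chr12:84773113-84773362, minus strand (Npc2) and chr13:119690101-119690350, plus strand (Hmgcs1).
Tm7sf2: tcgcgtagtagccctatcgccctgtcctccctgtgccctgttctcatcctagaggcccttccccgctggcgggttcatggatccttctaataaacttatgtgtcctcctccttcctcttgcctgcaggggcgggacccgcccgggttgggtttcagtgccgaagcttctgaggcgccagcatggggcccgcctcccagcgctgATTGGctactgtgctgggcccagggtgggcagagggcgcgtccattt
Lss: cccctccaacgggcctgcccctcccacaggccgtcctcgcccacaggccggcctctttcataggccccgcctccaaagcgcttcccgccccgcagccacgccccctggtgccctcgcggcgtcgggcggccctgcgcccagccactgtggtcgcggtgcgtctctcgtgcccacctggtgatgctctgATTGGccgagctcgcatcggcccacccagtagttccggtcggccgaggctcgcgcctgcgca
Mvk: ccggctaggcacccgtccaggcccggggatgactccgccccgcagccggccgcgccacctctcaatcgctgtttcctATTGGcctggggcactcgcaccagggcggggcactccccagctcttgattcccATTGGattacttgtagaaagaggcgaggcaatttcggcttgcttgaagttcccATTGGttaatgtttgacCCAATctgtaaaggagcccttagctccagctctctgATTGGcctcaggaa
Npc2: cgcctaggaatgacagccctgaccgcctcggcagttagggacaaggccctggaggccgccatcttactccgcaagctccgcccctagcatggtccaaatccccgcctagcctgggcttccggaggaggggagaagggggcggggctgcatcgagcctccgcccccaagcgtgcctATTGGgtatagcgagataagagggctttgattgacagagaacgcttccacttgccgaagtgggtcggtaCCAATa
Hmgcs1: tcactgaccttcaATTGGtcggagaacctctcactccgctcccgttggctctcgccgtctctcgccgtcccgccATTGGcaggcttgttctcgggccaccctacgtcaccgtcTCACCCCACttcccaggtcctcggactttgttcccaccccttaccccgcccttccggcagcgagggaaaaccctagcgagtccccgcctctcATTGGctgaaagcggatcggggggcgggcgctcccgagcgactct

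The Mvk window held 5 CCAAT matches, the Hmgcs1 window 3 with 1 match to the sterol element, the Npc2 window 2, and the Tm7sf2 and Lss windows 1 each. Windows were found for 23 of the 29 genes, 31 windows in all since some genes have several starts. CCAAT stood in 21 of the 31 windows (67.7%), against 33.8% of all 32851 windows of this length. The sterol element letters stood in 1 of the 31 (3.23%), against 1.05% of all windows. In the Hmgcs1 window the matches of the 2 motifs did not overlap. A match is a run of letters in the window, not a measured binding site.

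Total counts ranged from 13759741 to 66558546 per library. The mean level of each target in its own groups was 22.3% to 54.3% of the nontargeting mean. The difference passed in both sexes for 7 of the 9 targets in edgeR. It did not pass for Kdm6b in males (41.4%, adjusted p = 0.0953) or females (49.4%, adjusted p = 0.856), nor for Setd5 in males (54.3%, adjusted p = 0.402). The levels of Setd5 and Kdm6b contradicted the label of 2 male libraries. Male replicate 1 of the libraries labelled Setd5 shRNA had Setd5 at 141 CPM (counts scaled to library size) and Kdm6b at 23.1 CPM. Male replicate 1 of those labelled Kdm6b shRNA had Setd5 at 44.9 CPM and Kdm6b at 39.9 CPM. The male means of 54.3% and 41.4% include these 2 libraries. Male replicates 2 and 3 had Setd5 at 42.9 and 42.7 CPM after Setd5 shRNA. They had Kdm6b at 17.2 CPM each after Kdm6b shRNA. Nontargeting male libraries had 133 to 149 CPM of Setd5 and 55.1 to 64.9 CPM of Kdm6b. Neuron markers summed to 4862 to 5559 CPM in nontargeting libraries, astrocyte markers to 99.4 to 179 CPM and microglia markers to 0.945 to 2.64 CPM, where the median level of P2ry12 and Tmem119 was 0.

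In nontargeting libraries the genes spanned a wide range of abundance. Hmgcs1, the HMG-CoA synthase that commits acetyl-CoA units to the pathway, was the most abundant per length, with a median level of 270.0 CPM per kilobase of exon (range 239.0 to 336.0 over 6 libraries). Scd2, a stearoyl-CoA desaturase, followed at 194.0 (169.0 to 235.0), and the lanosterol demethylase gene Cyp51 at 102.0 (80.9 to 108.0) CPM per kilobase. These ranges do not overlap. The lowest levels per kilobase were those of Srebf1, at 3.2 (2.44 to 3.67), of the lysosomal sterol exporter gene Npc1, at 2.4 (1.72 to 2.98), and of the sterol efflux pump gene Abca1, at 1.35 (0.852 to 1.9), and neighbours in this lower part of the order overlap. Srebf2 was at 46.8 CPM per kilobase (41.5 to 50.7), with no overlap with the range of Srebf1. Exon lengths come from GENCODE M21 and may differ from the annotation the authors counted on. Every gene had at least 150 counts in every library, a floor set by Abca1.

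Neither infection nor sex moved these genes detectably. Nontargeting against no virus gave 0 of the 29 past the threshold, where 0% of all genes passed (edgeR quasi-likelihood test, Benjamini-Hochberg adjusted p under 0.05, which is the threshold for every call below). Unadjusted p was under 0.05 for 0 of the 29, and DESeq2 also called 0. The log2 differences lay between -0.06 and 0.19, with 95% intervals such as -0.16 to 0.26 for Srebf2, -0.22 to 0.3 for Lss and -0.52 to 0.9 for Abca1. Male against female nontargeting libraries likewise gave 0 of the 29, where 0.0434% of all genes passed, and DESeq2 and an unadjusted p under 0.05 gave 0 as well.

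Of the 9 knockdowns, Chd8 shRNA changed the most of the 29 genes. Averaged over the sexes, 14 of the 29 genes fell and 1 rose, where 22.3% of all genes tested passed, 12.5% lower and 9.85% higher. The median log2 fold change of the 29 was -0.38, beside 0 over all genes, and 23 of the 29 lay below 0. In the mevalonate arm 5 of 7 fell, in the squalene and sterol arm 6 of 11 and among the SREBP regulators 3 of 5. All 18 enzymes of the 2 arms had a negative estimate.

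**Figure D1:**
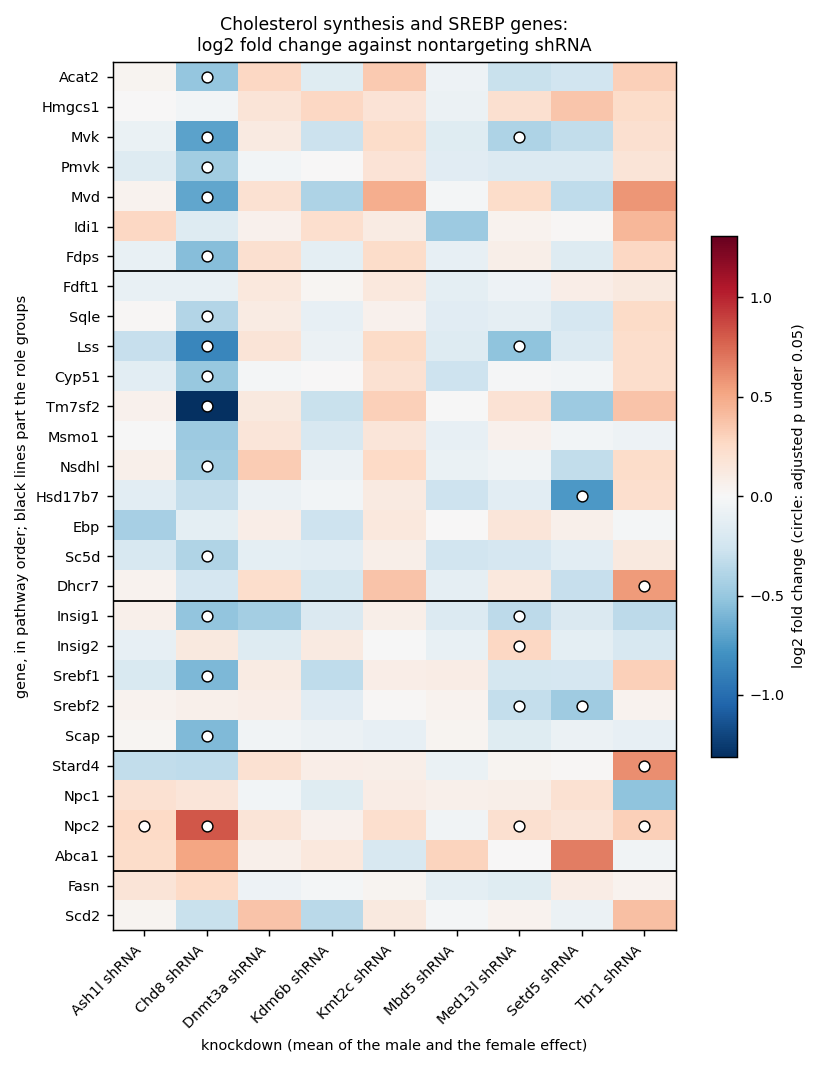
Log2 fold change against nontargeting shRNA (colour; blue lower, red higher) of the 29 genes (rows, in pathway order, role groups parted by black lines) after each of 9 knockdowns (columns, mean of the male and the female effect); white circles mark adjusted p under 0.05. Chd8 shRNA carries 15 circles, Med13l shRNA 6, Tbr1 shRNA 3, Setd5 shRNA 2, Ash1l shRNA 1 and the other 4 knockdowns 0.

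Tm7sf2, a sterol C14 reductase that acts just after Cyp51, changed most among the enzymes. Nontargeting libraries had 34.8, 41.5 and 37.0 CPM in males and 48.2, 30.1 and 42.7 CPM in females. After Chd8 shRNA the levels were 14.0, 17.3 and 17.5 CPM in males and 14.1, 14.7 and 16.8 CPM in females. The highest Chd8 shRNA library lay below the lowest nontargeting library, so the groups did not overlap. The log2 fold change was -1.31 (SE 0.153, adjusted p = 2.6e-09) in edgeR, a level 0.403 times that of nontargeting. Its exons overlap those of Vps51 on the same strand over 12.1% of their bases. Vps51 itself stood at a log2 fold change of 0.13 (adjusted p = 0.53).

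Lss, the lanosterol synthase that closes the sterol rings, had 115, 132 and 104 CPM in males and 121, 114 and 125 CPM in females in nontargeting libraries. It had 65.2, 78.4 and 57.8 CPM in males and 53.7, 64.1 and 72.0 CPM in females after Chd8 shRNA. All 6 depleted libraries were below all 6 controls, and the log2 fold change was -0.86 (SE 0.128, adjusted p = 7.78e-07) in edgeR. Mvk, the kinase that phosphorylates mevalonate, went from 51.2, 60.9 and 46.7 CPM in males and 68.5, 38.5 and 51.2 CPM in females to 28.9, 34.1 and 35.5 CPM in males and 35.0, 29.7 and 31.4 CPM in females. Again no library overlapped, although the female nontargeting libraries of Mvk were spread widely. The log2 fold change of Mvk was -0.70 (SE 0.132, adjusted p = 5.45e-05) in edgeR.

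The other enzymes that fell did so by less. Mvd, the decarboxylase that makes isopentenyl diphosphate, had a log2 fold change of -0.68 (SE 0.18, adjusted p = 0.00371) in edgeR, with 54.5 to 70.2 CPM after Chd8 shRNA and 67.6 to 127 CPM in nontargeting libraries. Acat2, the acetyl-CoA acetyltransferase at the entry, was at -0.50 (adjusted p = 0.00187), Fdps, which makes farnesyl diphosphate, at -0.55 (adjusted p = 0.00784), and Pmvk, the next kinase after Mvk, at -0.45 (adjusted p = 0.0308). Among the later enzymes, Cyp51 was at -0.50 (adjusted p = 0.00921), the sterol dehydrogenase gene Nsdhl at -0.45 (adjusted p = 0.00538), the desaturase gene Sc5d at -0.40 (adjusted p = 0.00132) and Sqle, the squalene epoxidase, at -0.38 (adjusted p = 0.00564). The Pmvk call was the least secure: it was lost without Chd8 shRNA female replicate 1 (adjusted p = 0.175), Chd8 shRNA male replicate 3 (0.148), nontargeting female replicate 1 (0.058), nontargeting male replicate 1 (0.0609) or nontargeting male replicate 2 (0.0502). The other 14 calls held when any 1 of the 12 libraries was left out. Acat2 shares 39.1% of its 50-base words with Acat3, which was at -1.54 (adjusted p = 0.0194), and Fdps shares 23.4% with the overlapping gene Gm43738, so how reads were split between them is uncertain.

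**Figure D2:**
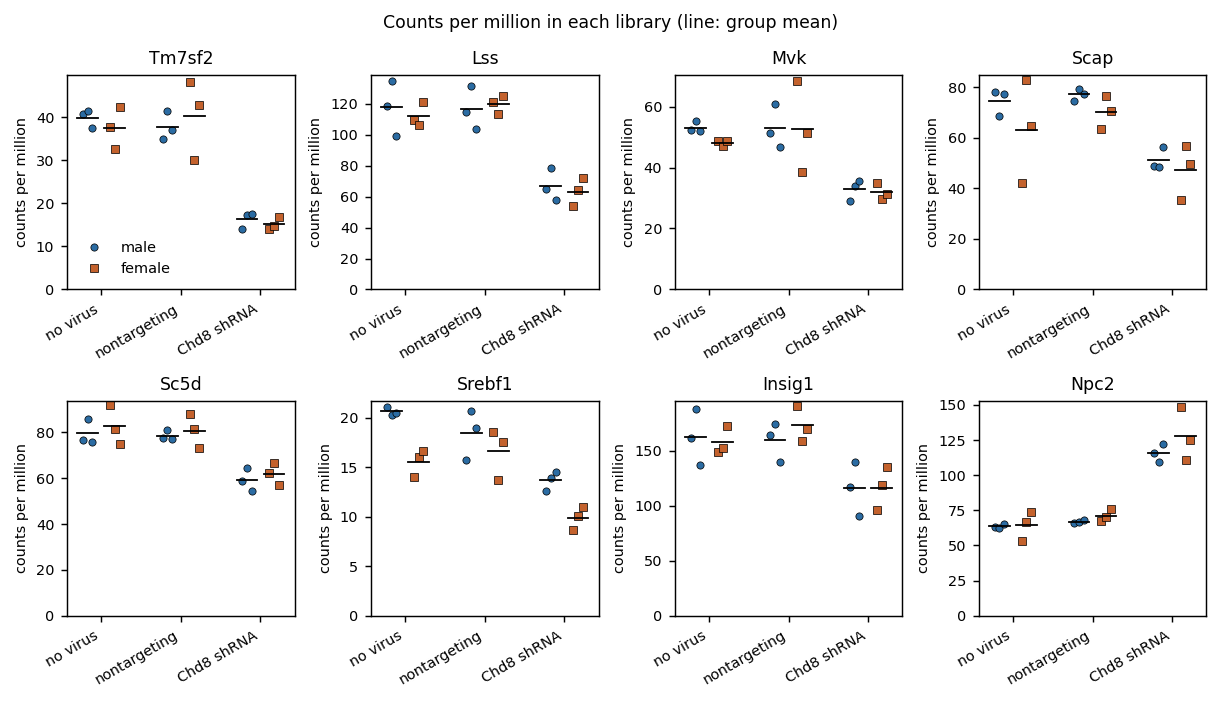
CPM (vertical axes, from 0) in each library without virus, with nontargeting shRNA and with Chd8 shRNA, for 8 genes; circles are male and squares female libraries, 3 each, and lines are group means. For Tm7sf2, Lss, Mvk, Scap, Sc5d and Insig1 every Chd8 shRNA library lies below every nontargeting library, and for Npc2 every one lies above.

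Some enzymes of the same arms did not pass the test. Hmgcs1 was at -0.04 (95% interval -0.3 to 0.22), Fdft1, the squalene synthase, at -0.10 (-0.31 to 0.11), and Ebp, a sterol isomerase, at -0.12 (-0.41 to 0.16). Idi1, the isopentenyl diphosphate isomerase, was at -0.17 (-0.57 to 0.24). Msmo1, the sterol methyl oxidase, was at -0.48 (-0.91 to -0.04), Hsd17b7 at -0.31 (-0.65 to 0.03) and Dhcr7, which makes cholesterol in the last step, at -0.22 (-0.49 to 0.05). The upper bound for Hmgcs1, Fdft1 and Ebp is above 0 and their lower bound is above the estimates of Tm7sf2, Lss and Mvk.

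Among the regulators, Scap fell to 0.669 times the nontargeting level, with 35.6 to 57.0 CPM after Chd8 shRNA and 63.6 to 79.5 CPM in nontargeting libraries. Its log2 fold change was -0.58 (SE 0.133, adjusted p = 0.000775) in edgeR. Srebf1 was at -0.59 (SE 0.143, adjusted p = 0.00167) and Insig1, itself a gene that SREBP switches on, at -0.52 (SE 0.129, adjusted p = 0.0022) in edgeR. Srebf2, the main driver of the pathway, did not pass, at 0.07 (95% interval -0.14 to 0.28), with 289.8 to 403 CPM after Chd8 shRNA and 298 to 364 CPM in nontargeting libraries. Insig2, which unlike Insig1 is not itself driven by SREBP, was at 0.13 (-0.06 to 0.32).

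The transport genes went the other way or did not pass. Npc2, the lysosomal protein that hands cholesterol to NPC1, had 66.3, 66.4 and 68.2 CPM in males and 67.7, 70.0 and 76.2 CPM in females in nontargeting libraries. After Chd8 shRNA it had 116, 109 and 122 CPM in males and 148, 111 and 125 CPM in females. Every depleted library exceeded every control, and the log2 fold change was 0.82 (SE 0.0789, adjusted p = 1.2e-11) in edgeR, a 1.76-fold level. Npc1 was at 0.16, the sterol carrier gene Stard4 at -0.33 and Abca1 at 0.52, none past the threshold. Of the fatty acid genes, Fasn was at 0.26 and Scd2 at -0.29, neither past it. With the replicate number as a block, which pairs these libraries in both sexes, 19 of the 29 passed, where 36.9% of all genes did. The 4 further calls there were Msmo1 at -0.47 (adjusted p = 0.00125), Stard4 at -0.33 (adjusted p = 0.0289) and Scd2 at -0.30 (adjusted p = 0.02), which were lower, and Fasn at 0.27 (adjusted p = 0.0173), which was higher.

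**Figure D3:**
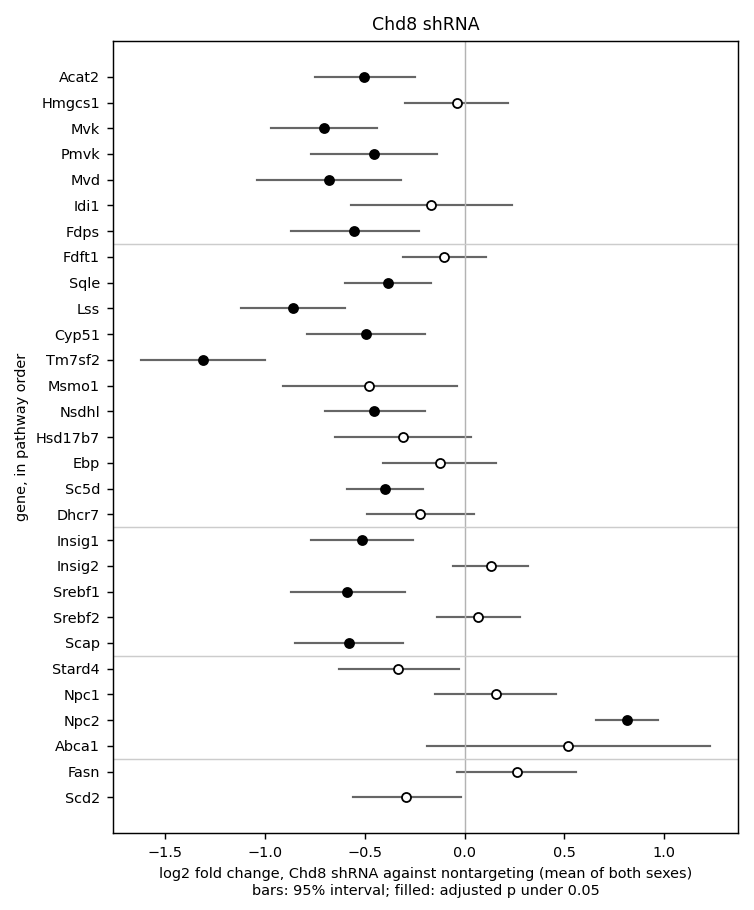
Log2 fold change of each of the 29 genes after Chd8 shRNA against nontargeting (horizontal axis, mean of both sexes, bars are 95% intervals), in pathway order from Acat2 at the top to Scd2 at the bottom; filled points have adjusted p under 0.05. All 18 enzymes of the first 2 role groups lie left of 0, Tm7sf2 furthest at -1.31, and Npc2 stands at 0.82.

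Both sexes gave the same direction for all 29 genes after Chd8 shRNA: 23 were lower in both and 6 higher in both, each sex set against its own nontargeting libraries. Over all genes tested, 81.8% had the same direction in both sexes. In males alone 5 genes fell (Mvk, Lss, Tm7sf2, Sc5d and Scap) and Npc2 rose, where 9.82% of all genes passed. In females alone 7 fell (Mvk, Sqle, Lss, Tm7sf2, Insig1, Srebf1 and Scap) and Npc2 rose, where 9.33% of all genes passed. The difference between the sexes did not pass for any of the 29, where 0% of all genes passed, and unadjusted p was under 0.05 for 0 of them. For Tm7sf2 the male minus female difference was 0.19 (95% interval -0.42 to 0.79) and for Srebf1 0.31 (95% interval -0.26 to 0.89). With the replicate number as a block, 16 genes passed in females and 15 in males, where 21.1% and 22.1% of all genes did. Without it, the male count fell from 6 to 3 without nontargeting male replicate 2 or Chd8 shRNA male replicate 1. The female count fell from 8 to 3 without nontargeting female replicate 1, and to 4 without nontargeting female replicate 3 or Chd8 shRNA female replicate 1.

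Against the other knockdowns rather than the control, the Chd8 shRNA libraries again stood low. Set against the mean of the other 8 knockdowns, a comparison that uses no control library, 18 of the 29 were lower and 2 higher (Npc2 and Insig2), where 34.3% of all genes passed. Beyond the genes already named, Dhcr7 at -0.31 (adjusted p = 0.0162), Stard4 at -0.41 (adjusted p = 0.00505), Msmo1 at -0.47 (adjusted p = 0.0247) and Scd2 at -0.36 (adjusted p = 0.00559) were lower here in edgeR. Averaged over the 29, the 6 Chd8 shRNA libraries differed from nontargeting of their sex by -0.362 to -0.200 on the log2 scale, as the plot of library means shows. All 6 libraries of Setd5, Kdm6b and Mbd5 shRNA also lay below 0, down to -0.274, -0.230 and -0.205. The nontargeting libraries themselves spread from -0.091 to 0.145, a range narrowed because each is part of the mean it is set against. The no virus libraries spread from -0.204 to 0.095, with 5 of 6 below 0, so the lowest of them lay at the upper end of the Chd8 shRNA range.

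**Figure D4:**
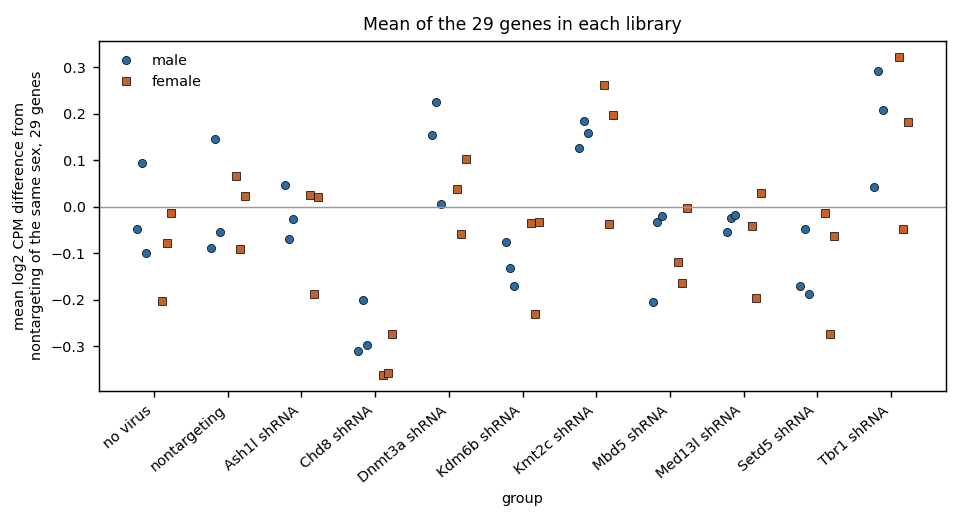
Mean over the 29 genes of the log2 CPM difference from the nontargeting mean of the same sex (vertical axis), for each of the 66 libraries by group; circles are male and squares female. The 6 Chd8 shRNA libraries lie between -0.362 and -0.200, and 5 of 6 libraries each of Dnmt3a, Kmt2c and Tbr1 shRNA lie above 0.

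Some sterol and lipid genes outside the 29 passed after Chd8 shRNA, where, as above, 22.3% of all genes passed, 12.5% lower. Of 11 other fatty acid targets of SREBP, 6 fell and 0 rose, led by the elongase gene Elovl6 at -0.80 (adjusted p = 2.33e-05), Aacs at -0.59 (adjusted p = 5.15e-05), the desaturase gene Fads2 at -0.58 (adjusted p = 0.001) and Scd1 at -0.95 (adjusted p = 0.00157). Of 6 genes of the liver X receptor (LXR) arm, which answers to sterol excess, 2 fell, Lpcat3 at -0.60 (adjusted p = 4.12e-06) and Nr1h2 at -0.66 (adjusted p = 0.000861). Of 12 genes for SREBP proteases, cholesterol turnover and NF-Y subunits, 2 fell (Soat1 and Mbtps2) and 2 rose (Erlin1 and the NF-Y subunit gene Nfyb). Mbtps2 encodes a protease that releases the active SREBPs, and its log2 fold change was -0.39 (adjusted p = 0.00227).

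Cell type markers were read in the same libraries, where 22.3% of all genes passed. After Chd8 shRNA the 7 neuron markers summed to 4665 to 5402 CPM, with Tubb3 higher and Map2 and Slc17a7 lower. The 7 astrocyte markers summed to 57.0 to 195 CPM, and 1 of them, Gfap, fell at -1.81 (adjusted p = 0.0096), with a list median of -0.46. Of the oligodendrocyte lineage markers 0 of 7 tested passed, and of the proliferation markers 0 of 4, with a median of -0.64. The part of these marker shifts in the lower pathway genes was not tested.

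Med13l shRNA changed fewer of the genes and in mixed directions. It lowered 4 of the 29 (Lss, Mvk, Insig1 and Srebf2) and raised 2 (Insig2 and Npc2), where 24.1% of all genes passed, 12.3% lower and 11.8% higher. The share of the 29 that passed was below that of all genes, and their median was -0.01, the same as over all genes. Lss had 90.6, 90.8 and 75.7 CPM in males and 68.7, 78.3 and 89.5 CPM in females, below every nontargeting library, and its log2 fold change was -0.53 (SE 0.128, adjusted p = 0.00166) in edgeR.

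Srebf2 had 339, 364 and 339 CPM in males and 298, 304 and 333 CPM in females in nontargeting libraries and 295, 289 and 315 CPM in males and 210.4, 242 and 249.8 CPM in females after Med13l shRNA. Within each sex the groups did not overlap, and the log2 fold change was -0.31 (SE 0.105, adjusted p = 0.0232) in edgeR. Mvk had 37.6, 43.8 and 42.9 CPM in males and 47.2, 32.6 and 35.4 CPM in females after Med13l shRNA, which overlapped the controls in females and not in males, with -0.41 (SE 0.132, adjusted p = 0.0195) in edgeR.

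Insig2 had 33.3, 33.9 and 32.3 CPM in males and 33.0, 32.3 and 31.5 CPM in females in nontargeting libraries. After Med13l shRNA it had 37.1, 40.9 and 33.0 CPM in males and 45.9, 39.5 and 41.7 CPM in females, higher in all 3 female libraries and overlapping in males, at 0.28 (SE 0.0932, adjusted p = 0.0251) in edgeR. Insig1 was at -0.34 (adjusted p = 0.0479) and Npc2 at 0.21 (adjusted p = 0.0489) in edgeR. The 2 INSIG genes thus differed in direction, and neither call held with no filter on low counts.

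Of these 6 calls, that of Lss alone held when any 1 of the 12 libraries was left out. The Mvk call was lost without nontargeting female replicate 1 (adjusted p = 0.109), nontargeting male replicate 2 (0.0656), Med13l shRNA male replicate 1 (0.0625), Med13l shRNA female replicate 3 (0.0605) or Med13l shRNA female replicate 2 (0.0572). That of Srebf2 was lost without Med13l shRNA female replicate 1 (0.0921), nontargeting female replicate 3 (0.0602), Med13l shRNA male replicate 2 (0.0578), Med13l shRNA male replicate 1 (0.0522) or nontargeting male replicate 2 (0.0517). That of Insig2 was lost without Med13l shRNA male replicate 2 (0.0684), Med13l shRNA female replicate 1 (0.0649) or nontargeting male replicate 3 (0.0546). Insig1 was called only without nontargeting male replicate 3 or Med13l shRNA male replicate 2, and Npc2 only without nontargeting female replicate 3, Med13l shRNA female replicate 2 or Med13l shRNA male replicate 2, with adjusted p up to 0.137 and 0.102 in the other refits. With no virus as the control Mvk (adjusted p = 0.0514), Srebf2 (0.0643) and Insig1 (0.102) were lost. With no filter on low counts Insig2 (0.0518), Npc2 (0.106) and Insig1 (0.0592) were lost, so 0 of the 29 passed as higher and 3 as lower. Over all genes 3295 passed in that fit. The count over the 29 fell to 2 without Med13l shRNA female replicate 1, Med13l shRNA male replicate 1 or nontargeting male replicate 2, and to 3 without nontargeting female replicate 1. In females alone 3 of the 29 passed (Lss lower, Insig2 and Npc2 higher), where 10.2% of all genes did, a similar share. In males alone 0 of the 29 passed, where 8.06% of all genes did. The replicate number pairs the Med13l shRNA libraries in females and not in males, and with it as a block 6 passed in females, 4 lower (Lss, Mvk, Srebf2 and Acat2) and 2 higher (Insig2 and Npc2), where 27.9% of all genes passed. In the fit with no block, the female count was 0 without nontargeting female replicate 1 or Med13l shRNA female replicate 1, and 1 without nontargeting female replicate 3 or Med13l shRNA female replicate 3. The male minus female difference for Insig2 was -0.24 (95% interval -0.61 to 0.14) and did not pass.

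After Med13l shRNA, as above, 24.1% of all genes passed, 12.3% lower and 11.8% higher. Of the 11 other fatty acid targets 3 fell, Acss2 at -0.42 (adjusted p = 0.00135), Acaca and Elovl6. In the LXR arm Mylip fell at -0.57 (adjusted p = 0.000592) and Abcg1 rose at 0.42 (adjusted p = 0.0151). Soat1, which esterifies cholesterol for storage, rose at 1.04 (adjusted p = 1.33e-05), whereas it fell after Chd8 shRNA at -0.72 (adjusted p = 0.00176), each set against the same control libraries. Mbtps2 likewise rose here, at 0.26 (adjusted p = 0.0411). The proliferation markers fell for 4 of 4, the astrocyte markers for 2 of 7 (sum 109 to 294 CPM) and the oligodendrocyte lineage markers for 2 of 7 tested, and their part in the pathway values was not tested.

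Setd5 shRNA lowered 2 of the 29 and raised 0, where 5.30% of all genes passed and 3.46% passed as lower. With so few calls, the share of the 29 that passed was near that of all genes. One was Srebf2, the gene of SREBP2. It had 308, 257 and 265 CPM in males and 164, 245 and 206 CPM in females after Setd5 shRNA, and its log2 fold change was -0.47 (SE 0.105, adjusted p = 0.00345) in edgeR. The female levels were below all female controls, and the male levels were below all male controls. The male level of 308 CPM came from the library labelled male replicate 1, whose Setd5 level went against its label.

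The other was Hsd17b7, a reductase that acts on the keto group left during sterol demethylation. Nontargeting libraries had 88.1, 86.8 and 85.7 CPM in males and 80.1, 101 and 74.4 CPM in females. The libraries labelled Setd5 shRNA had 97.9, 41.3 and 39.0 CPM in males and 30.5, 60.8 and 39.7 CPM in females, and the highest of them, the library labelled male replicate 1, is the one whose Setd5 level went against its label. The log2 fold change was -0.76 (SE 0.171, adjusted p = 0.00372) in edgeR. Both calls held when any 1 of the 12 libraries was left out and when both libraries that went against their labels were left out. Leaving out only the Setd5 shRNA library labelled male replicate 1, the estimate for Hsd17b7 was -1.04. Male replicate 1 of the libraries labelled Kdm6b shRNA had 54.1 CPM of Hsd17b7 and 185 CPM of Srebf2. The other Kdm6b shRNA male libraries had 96.8 and 83.4 CPM of Hsd17b7 and 323 and 344 CPM of Srebf2. The count over the 29 was 4 without nontargeting female replicate 2.

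The Srebf2 and Hsd17b7 decreases passed in females alone, at -0.61 (SE 0.149, adjusted p = 0.0127) and -0.97 (SE 0.244, adjusted p = 0.0156) in edgeR, where 3.12% of all genes passed. Males alone gave 0 of the 29, where 0.0557% of all genes passed, with estimates of -0.33 and -0.55. The male minus female difference was 0.28 (95% interval -0.14 to 0.7) for Srebf2 and 0.42 (95% interval -0.27 to 1.1) for Hsd17b7, and neither passed. The female count fell to 0 when Setd5 shRNA female replicate 1 was left out and to 1 without nontargeting female replicate 3. The male count was 1 without male replicate 1 of the libraries labelled Setd5 shRNA.

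The replicate number pairs the libraries of Setd5 shRNA with the controls in both sexes, and with it as a block 10 of the 29 passed, 8 lower and 2 higher, where 16.2% of all genes passed. The 6 further decreases in the blocked fit were Tm7sf2 at -0.47 (adjusted p = 0.000523), Nsdhl at -0.34 (adjusted p = 0.000639), Mvk at -0.31 (adjusted p = 0.0077), Dhcr7 at -0.31 (adjusted p = 0.0221), Acat2 at -0.25 (adjusted p = 0.0164) and Sqle at -0.22 (adjusted p = 0.00679). Hmgcs1 at 0.37 (adjusted p = 0.00255) and Abca1 at 0.60 (adjusted p = 0.0419) were higher there. Of the other fatty acid targets, Elovl6 at -0.68 (adjusted p = 0.00156) and Acss2 at -0.33 (adjusted p = 0.039) fell after Setd5 shRNA without the block. The proliferation markers Top2a and Ccnb1 fell too, and their part was not tested.

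After Tbr1 shRNA 3 of the 29 rose and 0 fell, where 1.33% of all genes passed and 0.248% passed as higher. The median of the 29 was 0.23, beside 0 over all genes, and 22 lay above 0, among them all 7 of the mevalonate arm. Chd8 and Tbr1 shRNA were set against the same control libraries. Neuron markers summed to 4457 to 4946 CPM after Tbr1 shRNA, with a median of 4746 CPM, below the lowest nontargeting library, and astrocyte markers to 119 to 293 CPM, with a median of 183 CPM, above the highest. No neuron, astrocyte, oligodendrocyte lineage, microglia or proliferation marker passed, and their part in the values was not tested.

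Dhcr7 had 104, 144 and 117 CPM in males and 132, 112 and 139 CPM in females in nontargeting libraries and 147, 204 and 194 CPM in males and 239.7, 124 and 193 CPM in females after Tbr1 shRNA. In males the groups did not overlap, and in females 1 depleted library lay within the control range. The log2 fold change was 0.56 (SE 0.135, adjusted p = 0.0171) in edgeR. Stard4, a carrier that moves sterol between membranes, had 94.9, 135 and 107 CPM in males and 91.9, 117 and 136 CPM in females in nontargeting libraries. It had 140.1, 197 and 165 CPM in males and 219.7, 134 and 188 CPM in females after Tbr1 shRNA, with an overlap of the lowest female library only, and its log2 fold change was 0.61 (SE 0.151, adjusted p = 0.0205) in edgeR.

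Npc2 had 78.2, 86.1 and 79.8 CPM in males and 91.5, 85.5 and 93.4 CPM in females after Tbr1 shRNA, above every control library, at 0.31 (SE 0.0786, adjusted p = 0.0256) in edgeR. The Tbr1 calls depended on single libraries. The count was 0 without Tbr1 shRNA female replicate 1, Tbr1 shRNA male replicate 2, nontargeting male replicate 1 or nontargeting male replicate 3, and it was 1 without Tbr1 shRNA female replicate 3 or nontargeting female replicate 2. Over the 12 refits the adjusted p ran from 0.00157 to 0.148 for Dhcr7, from 0.00544 to 0.127 for Stard4 and from 0.0207 to 0.103 for Npc2. Dhcr7 was lost in the first 4 of these refits (0.148, 0.0807, 0.0762 and 0.055) and without nontargeting female replicate 2 (0.0752). Stard4 was lost in the same 4 (0.127, 0.104, 0.079 and 0.066), without nontargeting female replicate 1 (0.0818) and without Tbr1 shRNA female replicate 3 (0.0572). Npc2 held only without nontargeting female replicate 3, Tbr1 shRNA female replicate 2, Tbr1 shRNA male replicate 1 or Tbr1 shRNA male replicate 3.

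The replicate number pairs the Tbr1 shRNA libraries with the controls, and with it as a block 11 of the 29 passed, 9 higher and 2 lower, where 6.57% of all genes passed. Besides the 3 genes above, Mvd at 0.58 (adjusted p = 0.000907), Scd2 at 0.39 (adjusted p = 0.015), Tm7sf2 at 0.36 (adjusted p = 0.0125), Acat2 at 0.31 (adjusted p = 0.0062), Sqle at 0.25 (adjusted p = 0.00495) and Nsdhl at 0.23 (adjusted p = 0.0363) were higher. Npc1 at -0.53 (adjusted p = 0.00205) and Insig1 at -0.33 (adjusted p = 0.0152) were lower. Set against the mean of the other 8 knockdowns, 12 were higher and 1, Npc1, lower, where 5.77% of all genes passed. Npc1 was at -0.61 (adjusted p = 0.000595) in that contrast. NPC1 and NPC2 serve the same lysosomal exit of cholesterol. Insig2 did not pass after Tbr1 shRNA, at -0.22 (adjusted p = 0.374) in edgeR. It had 26.5 to 30.4 CPM after Tbr1 shRNA, below the 31.5 to 33.9 CPM of the nontargeting libraries. Such separations were not counted over all genes. No gene of the 3 wider lists passed after Tbr1, Kdm6b or Mbd5 shRNA, and 1 after Kmt2c shRNA, Erlin2 at -0.28 (adjusted p = 0.00738).

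Npc2 was called in more knockdowns than any other of the 29: it rose after Ash1l, Chd8, Med13l and Tbr1 shRNA, all set against the same 6 nontargeting libraries. It also had the narrowest spread between replicates of the 29. With no filter on low counts, its edgeR calls after Ash1l (adjusted p = 0.102), Med13l (0.106) and Tbr1 shRNA (0.0611) were lost. After Ash1l shRNA it was the only gene of the 29 to pass in the edgeR fit without a replicate block, where 6.16% of all genes passed. It had 75.8, 77.4 and 72.2 CPM in males and 93.7, 81.2 and 97.7 CPM in females, above the controls within each sex, at 0.26 (SE 0.0785, adjusted p = 0.0359) in edgeR. That call was lost with 9 of the 12 libraries left out in turn (adjusted p from 0.0574 to 0.114) and kept without Ash1l shRNA female replicate 2, Ash1l shRNA male replicate 3 or nontargeting female replicate 3. Ebp, the sterol isomerase gene, did not pass after Ash1l shRNA, at -0.43 (adjusted p = 0.0593) in edgeR. Its depleted libraries lay below the controls of the same sex in both sexes, a separation not counted over all genes. With the replicate block, which pairs the Ash1l shRNA libraries in females and not in males, Ebp was at -0.43 (adjusted p = 0.00617) and Lss at -0.31 (adjusted p = 0.0244). DESeq2 called 1 gene of the 29 higher and 1 lower after Ash1l shRNA, where it called 1248 over all genes. After Med13l shRNA Npc2 had 71.8, 67.4 and 72.9 CPM in males and 95.4, 82.2 and 91.8 CPM in females, overlapping the control range in males. Against the other knockdowns, Npc2 was higher after Chd8 shRNA at 0.65 (adjusted p = 9.56e-14) and lower after Kdm6b shRNA at -0.21 (adjusted p = 0.0177) and Mbd5 shRNA at -0.32 (adjusted p = 0.000369). Ash1l shRNA also lowered Mbtps2 at -0.88 (adjusted p = 3.5e-09) and raised Abcg1 at 0.63 (adjusted p = 0.000992) and Me1 at 0.41 (adjusted p = 0.0479), genes outside the 29. Of the markers, Gad1 (neuron) and Top2a (proliferation) fell after Ash1l shRNA, with Gad1 at -1.28 (adjusted p = 1.68e-08), and their part was not tested.

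**Figure D5:**
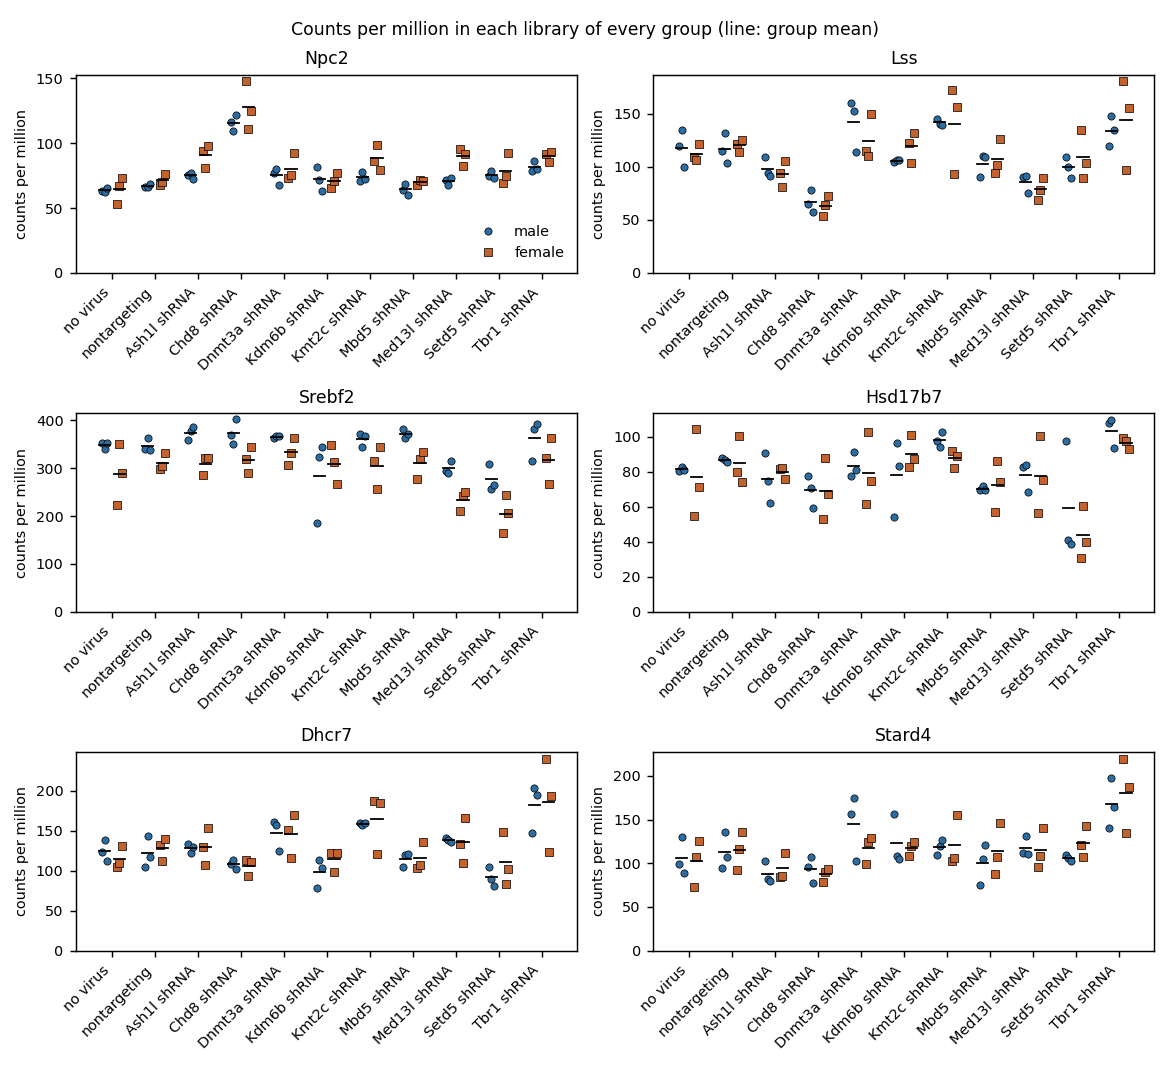
CPM (vertical axes, from 0) of 6 genes in every library of the 11 conditions; circles are male and squares female libraries, 3 each, and lines are group means. Npc2 is highest after Chd8 shRNA (109 to 148), Srebf2 and Hsd17b7 have their lowest libraries after Setd5 shRNA, and Dhcr7 and Stard4 their highest after Tbr1 shRNA.

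After Kmt2c, Dnmt3a, Kdm6b and Mbd5 shRNA 0 of the 29 passed. All genes passed at 0.694%, 1.40%, 0.966% and 0.663% in that order. At an unadjusted p under 0.05 there were 6, 5, 5 and 2 of the 29 in edgeR. That threshold is looser than the one behind the shares above, so these counts cannot be set against them. DESeq2 called 1 after Dnmt3a shRNA, where it called 352 over all genes, and 0 of the 29 after the others.

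After Kmt2c shRNA the estimates were mostly small and positive. Of the 29, 26 had a positive estimate, all 18 enzymes among them, with a median of 0.14 beside -0.01 over all genes. In both sexes 24 were higher and 2 lower. The direction was thus the same for 89.7% of the 29, and it was for 65.6% of all genes. The largest estimates were those of Mvd at 0.48 (adjusted p = 0.367), Dhcr7 at 0.37 (adjusted p = 0.337) and Acat2 at 0.35 (adjusted p = 0.314). The number pairs these libraries too, and with the replicate block 4 passed, all higher, where 2.97% of all genes passed: Mvd at 0.49 (adjusted p = 0.01), Dhcr7 at 0.37 (adjusted p = 0.0203), Acat2 at 0.35 (adjusted p = 0.00296) and Nsdhl at 0.26 (adjusted p = 0.028). Set against the other 8 knockdowns, 9 of the 29 were higher and 0 lower, where 6.39% of all genes passed, led by Mvd at 0.53 (adjusted p = 0.00541) and Tm7sf2 at 0.48 (adjusted p = 0.00226). Neuron markers summed to 4458 to 5011 CPM after Kmt2c shRNA, with a median of 4805 CPM, below the lowest nontargeting library, and astrocyte markers to 135 to 229 CPM. None of the markers passed, and their part was not tested.

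Dnmt3a shRNA gave 20 positive estimates and a median of 0.11. With the replicate block, which pairs its libraries, 4 passed where 6.97% of all genes did. Nsdhl at 0.32 (adjusted p = 0.00216), Acat2 at 0.27 (adjusted p = 0.0177) and Scd2 at 0.37 (adjusted p = 0.0191) were higher, while Insig1 at -0.45 (adjusted p = 0.00063) was lower. Set against the other knockdowns 5 were higher, where 6.14% of all genes passed, and 3 when Chd8 shRNA was left out of that mean. Of the wider lists, the LXR target Lpcat3 at -0.49 (adjusted p = 0.00312) and the NF-Y subunit gene Nfyc at -0.57 (adjusted p = 0.00875) fell. The astrocyte marker Gfap rose in the same libraries, at 2.14 (adjusted p = 0.017), with a summed astrocyte level of 146 to 386 CPM, and its part was not tested.

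Kdm6b and Mbd5 shRNA both had medians of -0.1, with 20 and 23 of the 29 below 0. Here too the values over all genes are not given, and no shift of the 29 is read from them. After Mbd5 shRNA the replicate block, which pairs its libraries, gave Idi1 at -0.47 (adjusted p = 0.0447) and Cyp51 at -0.27 (adjusted p = 0.0322), both lower, where 3.32% of all genes passed. Sc5d did not pass after Mbd5 shRNA, at -0.25 (adjusted p = 0.402) in edgeR. It had 62.2 to 71.1 CPM after Mbd5 shRNA, below the 73.2 to 87.8 CPM of the nontargeting libraries. How many of all genes separate this way was not counted. Against the other knockdowns Mbd5 shRNA had 2 lower (Idi1 and Npc2), where 5.70% of all genes passed. Kdm6b shRNA had 4 lower (Scd2, Npc2, Mvd and Dhcr7), where 10.4% of all genes passed, the library labelled Kdm6b shRNA male replicate 1 included. The neuron marker Slc17a7 fell after Kdm6b shRNA, at -0.69 (adjusted p = 0.0149), no marker passed after Mbd5 shRNA, and the part of the markers was not tested.

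Over all 9 knockdowns the male and the female effect differed for 0 of the 29, unadjusted p was under 0.05 for 0 of them in each knockdown, and DESeq2 called 0. All genes passed at 0% in 8 knockdowns and at 0.0186% after Setd5 shRNA.

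The spread that these comparisons had to exceed followed the replicate number in part. In the fit with the number as a block, the replicate number passed for 26 of the 29 genes in females, where 72.6% of all genes passed, and for 15 of the 29 in males, where 28.7% did. In females replicate 2 was below replicate 1 for 20 of the 29, with Msmo1 at -0.68, Idi1 at -0.72 and Fdps at -0.60 on the log2 scale, while Fasn was 0.55 and Scap 0.50 above. In males replicate 3 differed from replicate 1 by -0.44 for Msmo1 and -0.39 for Cyp51, and by 1.08 for Abca1. Abca1 had the widest spread between replicates of the 29, a biological coefficient of variation of 0.415, and Npc2 the narrowest, 0.0994, beside a median of 0.203 over all genes.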

How the data were processed

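Polyadenylated RNA was sequenced from 66 libraries in 22 groups of 3. The authors deposited 1 table of raw counts per gene for the whole series. STAR, featureCounts and mm10 are named in the submitters' processing notes, with no versions, and whether counting used strand is not given in the sources used here. Columns were matched to samples by name, and 6 columns that match no sample were not used. Of 48716 rows, 18483 without a gene symbol (0.69% to 1.41% of the counts of a library) were left out, and rows that repeat a symbol (149) were summed. Low counts were odd numbers less often than high counts (26.7% of values of 1 to 20 against 49.1% of values of 1000 or more), and whether the 2 reads of a pair were counted separately is not given in the sources used here, so the counts were also tested halved.

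CPM values (counts scaled to library size) used library sizes scaled by TMM (factors 0.874 to 1.06). The test was edgeR 4.0.16 (R 4.3.3), with 1 mean per group over all 66 libraries, robust quasi-likelihood dispersion and Benjamini-Hochberg adjustment over the 16145 genes that passed edgeR's expression filter. An effect averaged over sexes is the mean of the male and the female effect. A gene was called at an adjusted p under 0.05. Values in every library are given for up to 4 of the 29 with the smallest adjusted p in each knockdown and for the gene called in most knockdowns. Genes of the wider lists are given as counts, with up to 4 called examples of smallest adjusted p. The members and lists were chosen with earlier results of these data known.

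Alternatives were DESeq2 1.42.0, other scaling, no filter, each sex alone, no virus as control, leaving out each library, leaving out both libraries that go against their labels (chosen after seeing the data) and the replicate number as a block within sex. The number was taken to pair libraries where each same-numbered pair deviated together (correlation above 0.1) in a sex. This held in both sexes for Chd8, Dnmt3a, Kmt2c, Mbd5, Setd5 and Tbr1 shRNA (0.104 to 0.636) and, in females only, for Ash1l and Med13l shRNA, and not for Kdm6b shRNA (lowest over all -0.108). The pairing comes from these data, since the labels do not say what a number marks. The fit without a block was also run on simulated counts with known changes. Those counts held no effect of the replicate number, so that part of the spread was not covered. Promoter sequences are from RefSeq (GRCm38.p6).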

Additional observations from a re-analysis of the deposited data

How the results depend on the processing

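Under DESeq2, RLE scaling, halved counts, the replicate block and without both libraries that go against their labels, the 27 gene calls in comparisons averaged over the sexes all kept their direction and their side of the threshold. No filter on low counts kept 22 of them and no virus as control 24, and no estimate reversed in any alternative. Counts of called genes moved more, and the cause was not tested. With no filter the averaged count was 0 after Ash1l and 3 after Med13l shRNA, and the female count 5 after Chd8 and 1 after Med13l shRNA. Over all genes, 710, 3295, 1171 and 1257 passed in that order. With no virus as control the averaged count was 3 after Med13l and 1 after Kmt2c shRNA, and the female count after Ash1l shRNA was 1. Over all genes, 3799, 127 and 261 passed in that order. DESeq2 called 2 after Ash1l, 1 after Dnmt3a and 5 after Tbr1 shRNA, and 1248, 352 and 328 over all genes. Without both libraries that go against their labels, 1 passed after Dnmt3a shRNA, and 282 over all genes. Fitted separately, males gave 11 after Chd8 and 1 each after Ash1l, Med13l and Tbr1 shRNA, and females gave 5 after Chd8 and 0 after Med13l and Setd5 shRNA. Over all genes these male fits gave 2907 (Chd8), 935 (Ash1l), 3079 (Med13l) and 185 (Tbr1). The female fits gave 784 (Chd8), 738 (Med13l) and 183 (Setd5) over all genes. Leaving Chd8 shRNA out of the mean of the others gave 3 for Dnmt3a shRNA.

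The replicate block raised the averaged count to 3 (Ash1l), 4 (Dnmt3a), 6 (Kdm6b), 4 (Kmt2c), 2 (Mbd5), 10 (Setd5) and 11 (Tbr1). Of all 16145 genes, 2784 (Ash1l), 1126 (Dnmt3a), 1270 (Kdm6b), 480 (Kmt2c), 536 (Mbd5), 2621 (Setd5) and 1061 (Tbr1) passed there. The block gave male counts of 15 (Chd8), 4 (Med13l) and 4 (Tbr1), and female counts of 1 (Ash1l), 16 (Chd8), 1 (Dnmt3a), 6 (Med13l), 6 (Setd5) and 2 (Tbr1). Over all genes the male counts were 3576 (Chd8), 3835 (Med13l) and 282 (Tbr1). The female counts over all genes were 716 (Ash1l), 3404 (Chd8), 208 (Dnmt3a), 4498 (Med13l), 2098 (Setd5) and 145 (Tbr1). Against the other knockdowns the block gave 7 (Ash1l), 12 (Dnmt3a), 8 (Kdm6b), 16 (Kmt2c), 7 (Mbd5) and 12 (Setd5). It moved no other count by more than 1.5 times.

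Leaving out 1 library at a time gave averaged counts of 14 to 15 (Chd8), 2 to 4 (Med13l), 2 to 4 (Setd5), 0 to 4 (Tbr1) and 0 to 1 (Ash1l), and 0 throughout for the other 4. Within 1 sex it gave 3 to 5 (Chd8 male), 3 to 10 (Chd8 female), 0 to 3 (Med13l female), 0 to 2 (Setd5 female) and 0 to 1 (Setd5 male). Depth was not low for these genes: the smallest count in any library was 150, for Abca1.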
